A study of Saccharomyces cerevisiae with 6 samples.

Results

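The genes described here encode the proteins of the large subunit of the cytosolic ribosome of the yeast Saccharomyces cerevisiae. They were taken as every gene probe whose symbol is RPL with a number and an optional A or B, together with RPP0, RPP1A, RPP1B, RPP2A and RPP2B, and symbols came from the probe's locus tag. The rule found 81 of the 6256 genes on the array, each with 1 probe printed in 7 spots. It used names and no measured value. Of the 81 genes, 70 form 35 pairs of an A and a B copy and 11 have no partner among them. The array was a 1-colour Agilent array read as Cy3 intensity, and RNA was taken from 2 strains 6 h into a fermentation with 80 g/l xylose. The wild type was BY4741, a haploid laboratory strain, and the other strain was BY4741 with a deletion of PHO80, the gene for the cyclin that activates the kinase Pho85 toward the phosphate regulator Pho4. Each strain had 3 arrays.

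The large subunit carries the peptidyl transferase centre and the tunnel through which the new protein leaves, and its proteins clothe a core of ribosomal RNA. Yeast makes these proteins in near-equal amounts, and their genes are among the most heavily transcribed in growing cells. The transcription factors Rap1, Fhl1, Ifh1 and Sfp1 drive many of them, and nutrient signals through TOR and protein kinase A raise or lower them together. Most exist as duplicate genes left from an ancient doubling of the genome, and the copies often encode the same or nearly the same protein.

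Each value is the log2 processed signal minus the 75th percentile of its array, called a log2 signal below, and a log2 fold change is the deletion strain minus wild type. Because they depend on the probe, log2 signals of different genes are not compared. On PHO80 itself the wild-type arrays read -2.93, -2.83 and -2.86, and the deletion arrays read -9.41, -9.85 and -9.96 and were not well above background. LEU2 and MET17, which BY4741 lacks, were not well above background on any array. URA3, which it also lacks, was bright and read 3.79, 3.74 and 3.75 on the wild-type arrays and 6.11, 5.55 and 5.90 on the deletion arrays. The URA3 signal thus also differed between the strains. Its source was not tested, and any effect of it cannot be told apart from that of the deletion. Within a strain, arrays 1 and 3 were closer to each other than spot noise alone would leave them: the median squared difference over spot variance was 0.434 for wild type and 0.396 for the deletion, where noise gives 0.484. Their mean was used as a single sample, so each strain had 2 samples. Wild-type array 2 gave ratios of 0.634 and 0.677 to its companions, and deletion array 2 gave 87.5 and 93.7. Over the 81 members alone the ratios of wild-type array 2 were 0.569 and 0.405, around the 0.484 of noise. For these genes the 2 wild-type samples may thus be repeats of 1 sample. The 3 arrays of a strain shared a slide that held no array of the other strain, and the effect of slide cannot be told apart from that of the deletion. Separate cultures are not stated in the labels, so every p-value and SE covers the spread between these samples alone, which may be technical. Fewer ribosomal transcripts per cell and a change in the rest of the RNA cannot be told apart, because each array was scaled to itself.

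Large subunit genes were lower in the deletion strain almost throughout. All 81 were well above background on every array, and none of their spots was saturated. The limma fit across 5863 genes called 74 of the 81 lower and 1 higher at an adjusted p under 0.05, where 34.6% of all tested genes were called lower and 19.2% higher. The 74 genes each fell by at least 2-fold, a size of fall called for 24.1% of all tested genes. The median log2 fold change of the 81 was -1.99, with quartiles of -2.42 and -1.56, and the median of all tested genes was -0.28. A larger fall than the members' median was measured for 7.52% of all tested genes. In 79 genes the 3 deletion arrays all lay below the 3 wild-type arrays, and in 1 they all lay above. Over all tested genes these shares were 50.9% and 31.1%.

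The count of falls moved little with the arrays used. Without wild-type array 2 it was 73 lower and 0 higher, against 19.1% and 8.92% of all genes, and without deletion array 2 it was 79 and 1, against 56.1% and 37.5%. In both fits the members stayed far above the share of all genes called lower. Both fits leave 1 sample in a strain, whose spread is taken to be that of the other strain, and without deletion array 2 that spread is the small one of wild type. With median centring of the arrays the median of all genes moved to 0.012 and 71 members were lower, 67 of them by at least 2-fold, against 25.8% of all genes called lower.

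**Figure D1:**
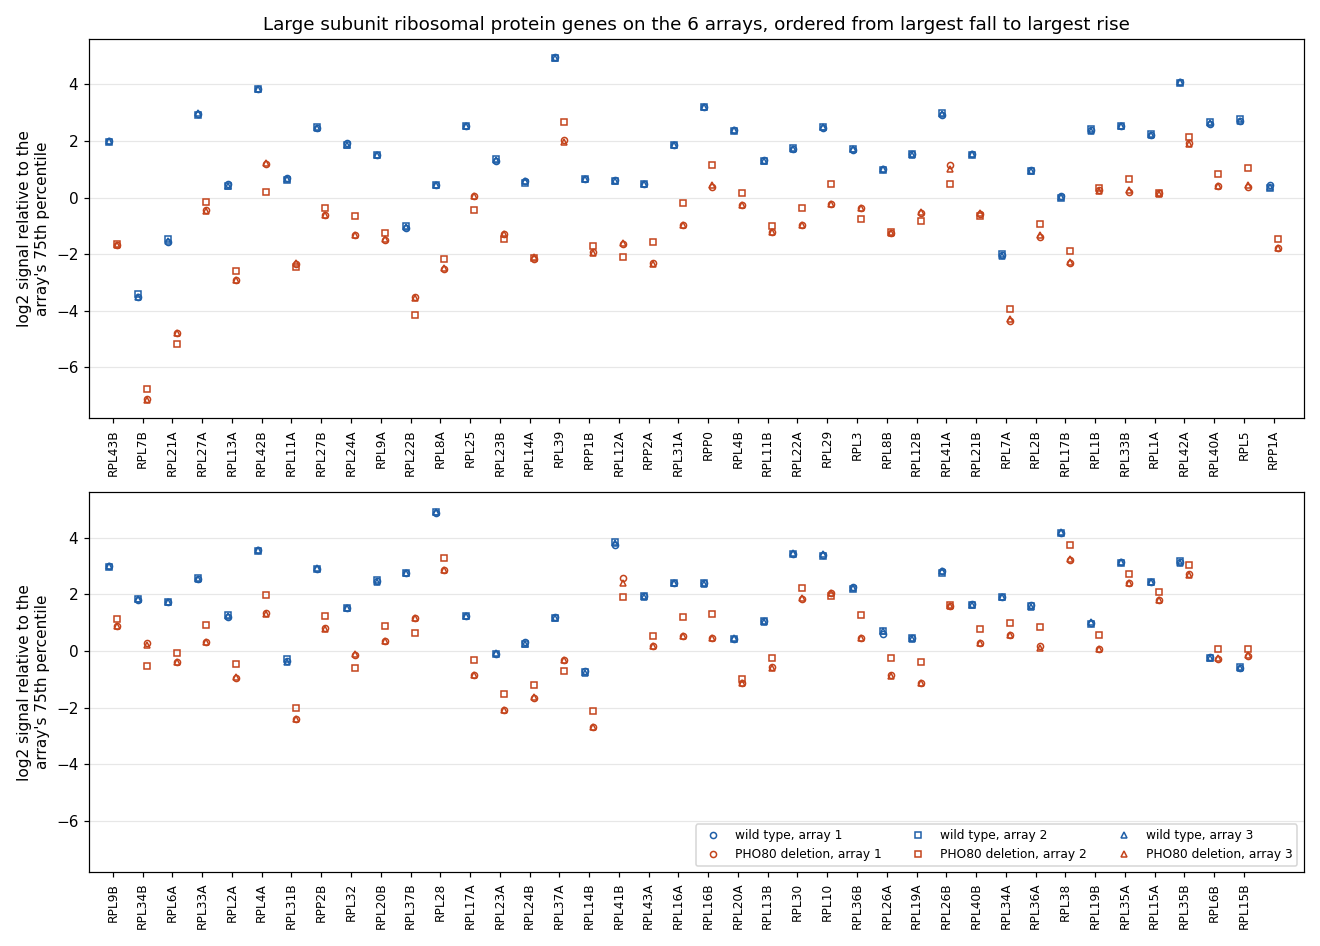
Log2 signal minus the 75th percentile of the array (vertical axis) for 79 of the large subunit genes (horizontal axis, 1 pair not shown, in order of fitted log2 fold change), with wild-type arrays in blue and PHO80 deletion arrays in orange. In 77 of them the 3 orange points lie below the 3 blue ones, RPL6B overlaps, and RPL15B lies above.

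**Figure D2:**
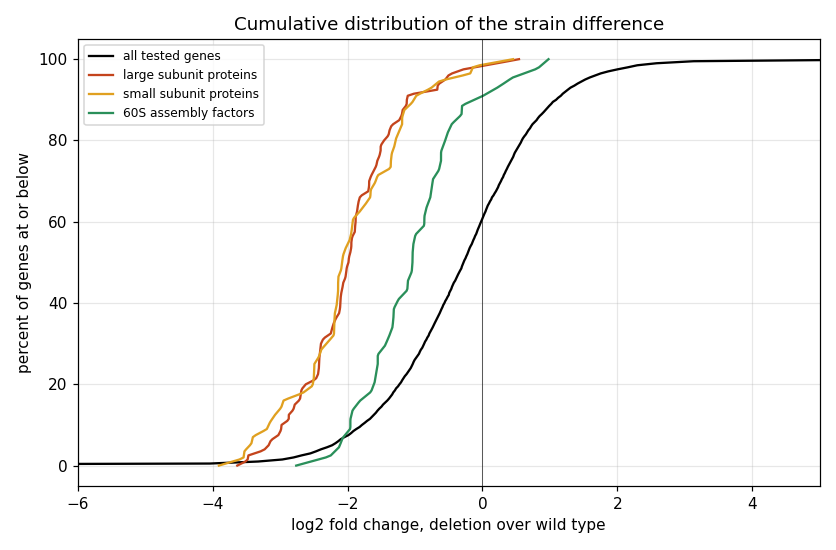
Percent of genes (vertical axis) at or below each log2 fold change (horizontal axis) for all 5863 tested genes, the 81 large subunit genes, the 57 small subunit genes and 45 large subunit assembly factor genes. The medians are -0.28, -1.99, -2.08 and -1.04.

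The stalk is a flexible arm of the large subunit that recruits elongation factors and stimulates their GTP hydrolysis. Its base is P0, the product of RPP0, which holds dimers of the acidic proteins P1 and P2, each made as an A and a B form. All 5 stalk genes were called lower, beside 34.6% of all tested genes. RPP0 read 3.21, 3.21 and 3.21 on the wild-type arrays and 0.38, 1.15 and 0.46 on the deletion arrays, a log2 fold change of -2.42 ± 0.28 (SE; adjusted p = 0.00599, limma). The deletion arrays lay more than 2 log2 units below wild type on each array, with array 2 the highest.

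The 4 acidic protein genes were all called lower, beside the same 34.6% of all tested genes. RPP1A read 0.43, 0.33 and 0.36 in wild type against -1.79, -1.46 and -1.79 in the deletion strain. RPP1B read 0.64, 0.66 and 0.65 in wild type against -1.91, -1.70 and -1.98 in the deletion strain. Both P1 genes were highest on deletion array 2 among the deletion arrays. RPP2A read 0.48, 0.48 and 0.47 in wild type against -2.30, -1.57 and -2.35 in the deletion strain. RPP2B read 2.91, 2.89 and 2.93 in wild type against 0.80, 1.25 and 0.79 in the deletion strain. In each of them all deletion arrays lay below wild type, as in 50.9% of all tested genes. Fitted log2 fold changes were -1.99 ± 0.16 for RPP1A, -2.47 ± 0.14 for RPP1B, -2.43 ± 0.29 for RPP2A and -1.88 ± 0.19 for RPP2B. The A form was then compared with the B form within each array. A minus B changed by 0.49 in RPP1, where B fell more (adjusted p = 0.0139, limma over all named A/B pairs), and by -0.55 ± 0.13 in RPP2, where A fell more (adjusted p = 0.0338, limma). The P2 difference was -0.10 with quantile normalization (adjusted p = 0.641, limma) and -0.45 with normexp (adjusted p = 0.0691, limma), and was called in neither.

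The 11 genes without a partner comprise RPP0 and 10 RPL genes. Of the 11, 10 were called lower, beside 74 of the 81 members and 34.6% of all tested genes. RPL39, which encodes a very short protein lining the exit tunnel, read 4.95, 4.93 and 4.94 on the wild-type arrays and 2.02, 2.66 and 1.94 on the deletion arrays. RPL25, whose protein sits at the tunnel exit and contacts the signal recognition particle, read 2.52, 2.51 and 2.51 in wild type against 0.049, -0.45 and 0.062 in the deletion strain. RPL25 was lowest on deletion array 2 and RPL39 highest there, while both stayed more than 2 log2 units below wild type on every deletion array. Their log2 fold changes were -2.71 ± 0.21 for RPL25 and -2.62 ± 0.27 for RPL39. Of the 14 genes for proteins at the tunnel or its exit, 11 were called lower, beside the same 34.6% of all tested genes. Their median was -1.85, and the 3 not called were RPL19B, RPL35A and RPL35B.

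Among the proteins of the catalytic region, RPL3 reaches toward the peptidyl transferase centre, and RPL10 joins last in the cytoplasm and completes the site where transfer RNA is accommodated. RPL3 read 1.67, 1.70 and 1.70 on the wild-type arrays and -0.38, -0.74 and -0.37 on the deletion arrays. RPL10 read 3.37, 3.35 and 3.41 in wild type against 2.07, 1.93 and 2.05 in the deletion strain. Both were lowest on deletion array 2, and their log2 fold changes were -2.25 ± 0.17 for RPL3 and -1.38 ± 0.12 for RPL10. The paired RPL2A and RPL2B, whose protein supports the catalytic centre, had log2 fold changes of -1.93 and -2.11. All 4 of these genes were called lower, beside 34.6% of all tested genes.

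RPL5 binds the 5S ribosomal RNA together with RPL11 and enters the subunit as a preformed particle. RPL5 read 2.70, 2.75 and 2.70 on the wild-type arrays and 0.38, 1.03 and 0.42 on the deletion arrays (log2 fold change -2.01 ± 0.25). RPL11A and RPL11B had log2 fold changes of -3.03 and -2.40, and A fell more than B, with a change in A minus B of -0.62 ± 0.14 (adjusted p = 0.0268, limma). All 3 genes of this particle were called lower, beside 34.6% of all tested genes. In each, all deletion arrays lay below wild type, as in 50.9% of all tested genes.

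The remaining single genes fell by unequal amounts. RPL29, whose small protein is dispensable, read 2.46, 2.48 and 2.48 in wild type against -0.23, 0.46 and -0.23 in the deletion strain (log2 fold change -2.36 ± 0.27). RPL28, the protein in which resistance to cycloheximide arises, read 4.88, 4.93 and 4.90 in wild type against 2.86, 3.28 and 2.87 in the deletion strain (-1.84 ± 0.19). RPL32 read 1.52, 1.52 and 1.53 in wild type against -0.12, -0.60 and -0.10 in the deletion strain (-1.88 ± 0.20). In these 3 all deletion arrays lay below wild type, as in 50.9% of all tested genes. Array 2 was the highest deletion array for RPL28 and RPL29 and the lowest for RPL32. RPL30, which binds its own transcript and blocks its splicing when in excess, read 3.44, 3.44 and 3.47 in wild type against 1.85, 2.23 and 1.88 in the deletion strain (-1.39 ± 0.17).

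RPL38 was the one single gene that was not called. Its protein is dispensable in yeast, and in mouse it is known for a role in the translation of Hox transcripts. RPL38 read 4.18, 4.15 and 4.21 on the wild-type arrays and 3.23, 3.76 and 3.25 on the deletion arrays, with a log2 fold change of -0.67 ± 0.22 (adjusted p = 0.0675, limma). Each deletion array was still below each wild-type array. With quantile normalization RPL38 had -1.10 and was called (adjusted p = 0.00493, limma), and without deletion array 2 it had -0.93.

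The 6 largest falls were those of RPL43B, RPL7B, RPL21A, RPL27A, RPL13A and RPL42B. RPL43B, a copy of the gene for a zinc-binding protein, read 1.99, 1.97 and 1.99 on the wild-type arrays and -1.68, -1.64 and -1.68 on the deletion arrays. This is a log2 fold change of -3.64 ± 0.10, or 12.4-fold lower (adjusted p = 0.00156, limma). Its 3 deletion arrays lay within 0.05 of each other, so the separation exceeded the spread on either side many times over.

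RPL7B read -3.50, -3.42 and -3.50 in wild type against -7.13, -6.76 and -7.13 in the deletion strain, with a log2 fold change of -3.49 ± 0.20. It was one of the dimmer probes, and with normexp background correction its log2 fold change was -1.93. RPL21A read -1.56, -1.47 and -1.53 in wild type against -4.78, -5.19 and -4.77 in the deletion strain, a log2 fold change of -3.47 ± 0.19. Both genes were dim in the deletion strain but still well above background on each array.

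RPL27A read 2.95, 2.92 and 2.99 in wild type against -0.43, -0.15 and -0.47 in the deletion strain. RPL13A read 0.47, 0.40 and 0.42 in wild type against -2.91, -2.58 and -2.92 in the deletion strain. RPL42B, whose protein lies near the site where transfer RNA exits, read 3.84, 3.84 and 3.84 in wild type against 1.18, 0.20 and 1.20 in the deletion strain. Their log2 fold changes were -3.25 ± 0.15, -3.17 ± 0.16 and -3.14 ± 0.37. The larger error of RPL42B came from deletion array 2, which lay 0.99 below the mean of arrays 1 and 3, whereas RPL27A and RPL13A were slightly higher on that array. All 3 fell by over 8-fold.

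At the other end, 6 genes changed little or rose. RPL15B was the one gene called higher. It read -0.58, -0.56 and -0.60 on the wild-type arrays and -0.16, 0.076 and -0.13 on the deletion arrays, a rise of 0.54 ± 0.13 (adjusted p = 0.0309, limma), and all 3 deletion arrays lay above all 3 wild-type arrays. The call was lost without wild-type array 2 (0.56, adjusted p = 0.37, limma), and with median centring the rise was 0.84. RPL15A, its partner, read 2.43, 2.45 and 2.44 in wild type against 1.81, 2.10 and 1.79 in the deletion strain with -0.49 ± 0.15 as its log2 fold change (adjusted p = 0.0563, limma).

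RPL6B read -0.22, -0.24 and -0.23 on the wild-type arrays and -0.27, 0.066 and -0.25 on the deletion arrays. It was the one gene whose strains overlapped, with a log2 fold change of 0.14 ± 0.15 (adjusted p = 0.488, limma) and of -0.024 without deletion array 2. RPL19B, whose protein helps form a bridge to the small subunit, read 1.004, 0.96 and 1.02 in wild type against 0.071, 0.57 and 0.073 in the deletion strain (-0.66 ± 0.21, adjusted p = 0.0594, limma).

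RPL35A and RPL35B encode a protein at the tunnel exit. RPL35A read 3.13, 3.10 and 3.14 in wild type against 2.40, 2.73 and 2.41 in the deletion strain, with a log2 fold change of -0.55 ± 0.16 (adjusted p = 0.0511, limma). RPL35B read 3.13, 3.16 and 3.12 in wild type against 2.70, 3.03 and 2.70 in the deletion strain, with -0.28 ± 0.16 (adjusted p = 0.211, limma). In both copies every deletion array was below every wild-type array, by small amounts. The scaling set much of these values, since RPL35B had 0.012 with median centring and -0.68 with quantile normalization, where both copies were called.

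RPL15A, RPL19B, RPL35A and RPL38 lay close to the threshold, with adjusted p from 0.0511 to 0.0675 (limma). All 4 were called lower with quantile normalization, with 6 separate arrays and without deletion array 2, fits that called 24.6%, 44.8% and 56.1% of all genes lower. None of the 4 was called with median centring.

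Set side by side, both copies were called lower in 31 of the 35 pairs, 1 copy in 2 pairs (RPL6 and RPL19), and neither in 2 pairs (RPL15 and RPL35). For single genes the share called lower was 34.6% over all tested genes. To ask whether the copies of a pair fell by different amounts, the A minus B difference was taken within each array, which removes any common scaling of that array. The strains' differences were then compared with limma over the 61 pairs on the array whose symbols differ in a final A or B. Of the 35 large subunit pairs 19 changed unequally, 15 with the more negative change in A and 4 in B. Over all 61 pairs 50.8% were called, so the share in large subunit pairs is near that of the whole set, of which they are the larger part. Of 24 small subunit pairs 11 were called, 4 with the more negative change in A and 7 in B. The split between A and B in large subunit pairs was 15 and 8 with quantile normalization and 18 and 9 with 6 separate arrays. Whether 1 copy falls more across pairs was not tested.

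Those calls rest on wild-type array 2. Without it, or with the wild-type arrays counted as 1 sample, 0 of the 35 pairs were called by limma, while 11 had an unadjusted p under 0.05, and the smallest adjusted p were 0.0522 and 0.0527. Of all 61 pairs 0% were called in either fit. Without deletion array 2 there were 31 calls, against 88.5% of all 61 pairs. In each of the 19 pairs the difference kept its sign under all 16 alternatives. The A minus B values did not overlap between strains in 30 of the 35 pairs, a share near the 85.2% of all 61 pairs. Probe sequences were not used here, and whether a probe binds both copies of a pair was not tested.

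**Figure D3:**
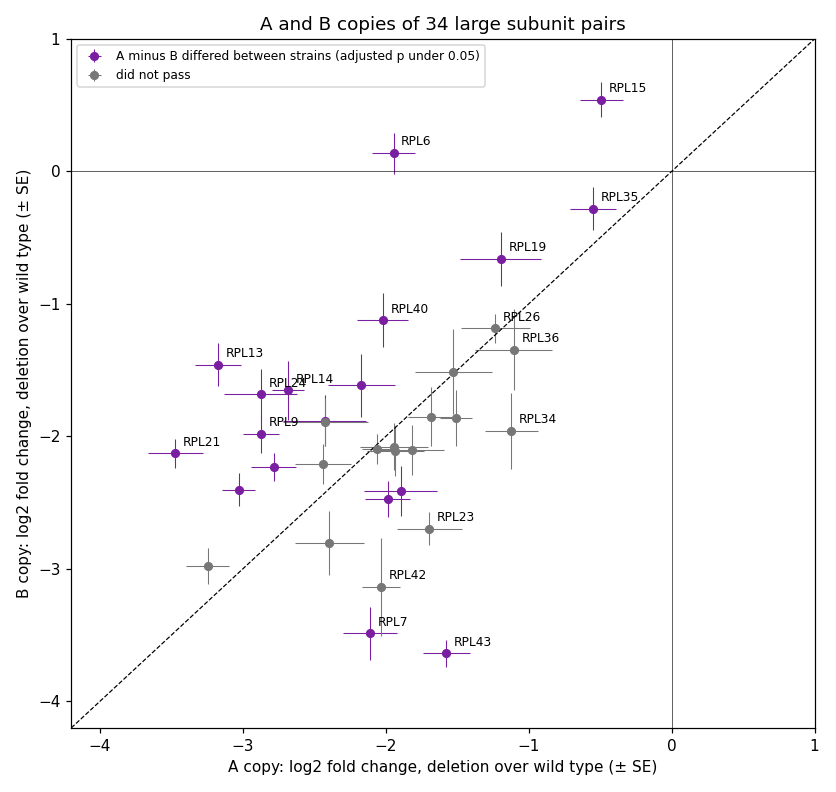
Log2 fold change of the B copy (vertical axis) against that of the A copy (horizontal axis) for 34 of the pairs, with SE bars and a dashed line where both are equal. Purple marks the 18 drawn pairs whose A minus B difference changed between strains, and RPL6 and RPL43 lie farthest from the line.

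RPL6 and RPL43 had the largest differences between copies, in opposite directions. In RPL6, A minus B was 1.96, 1.97 and 1.95 on the wild-type arrays and -0.10, -0.13 and -0.13 on the deletion arrays, a change of -2.08 ± 0.07 with a 95% interval of -2.28 to -1.88 (adjusted p = 0.000576, limma). RPL6A read 1.74, 1.72 and 1.72 on the wild-type arrays and -0.37, -0.065 and -0.38 on the deletion arrays, so it fell (-1.95 ± 0.15) while RPL6B did not. In RPL43, A minus B went from -0.062, -0.016 and -0.086 to 1.87, 2.17 and 1.86, a change of 2.06 ± 0.14 (adjusted p = 0.00129, limma). RPL43A read 1.93, 1.95 and 1.90 in wild type against 0.19, 0.53 and 0.18 in the deletion strain and had a log2 fold change of -1.58 ± 0.16, falling less than RPL43B did.

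RPL13 and RPL21 each fell more in the A copy. RPL13B read 1.04, 1.05 and 1.03 on the wild-type arrays and -0.58, -0.24 and -0.60 on the deletion arrays, and A minus B changed by -1.71 ± 0.073 from -0.58, -0.65 and -0.61 to -2.33, -2.34 and -2.32. The change in this pair was nearly the same on all 3 deletion arrays.

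RPL21B read 1.54, 1.49 and 1.52 in wild type against -0.57, -0.67 and -0.56 in the deletion strain, and its pair changed by -1.35 ± 0.14 (adjusted p = 0.00351, limma). That difference was -0.61 with quantile normalization and -0.68 with normexp, and it was called in both.

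RPL7 fell more in the B copy. RPL7A read -2.04, -2.001 and -2.05 on the wild-type arrays and -4.38, -3.93 and -4.30 on the deletion arrays, and A minus B changed by 1.37 ± 0.072 (adjusted p = 0.000771, limma) from 1.46, 1.42 and 1.45 to 2.75, 2.82 and 2.83. With normexp the change was 0.15 and not called (adjusted p = 0.258, limma). Of the 6 pairs with the largest differences it was the one that depended on the background correction for its call.

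The copies of RPL15 also parted. RPL15 and RPL42 are given here because of their values. A minus B was 3.01, 3.01 and 3.04 on the wild-type arrays and 1.97, 2.02 and 1.92 on the deletion arrays, a change of -1.03 ± 0.075 (adjusted p = 0.00138, limma). RPL42 was as far apart in the fit, at 1.105 ± 0.44, but was not called (adjusted p = 0.113, limma), since its A minus B of 0.75, 1.92 and 0.70 on the deletion arrays was set by array 2. Without that array the change in RPL42 was 0.51.

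**Figure D4:**
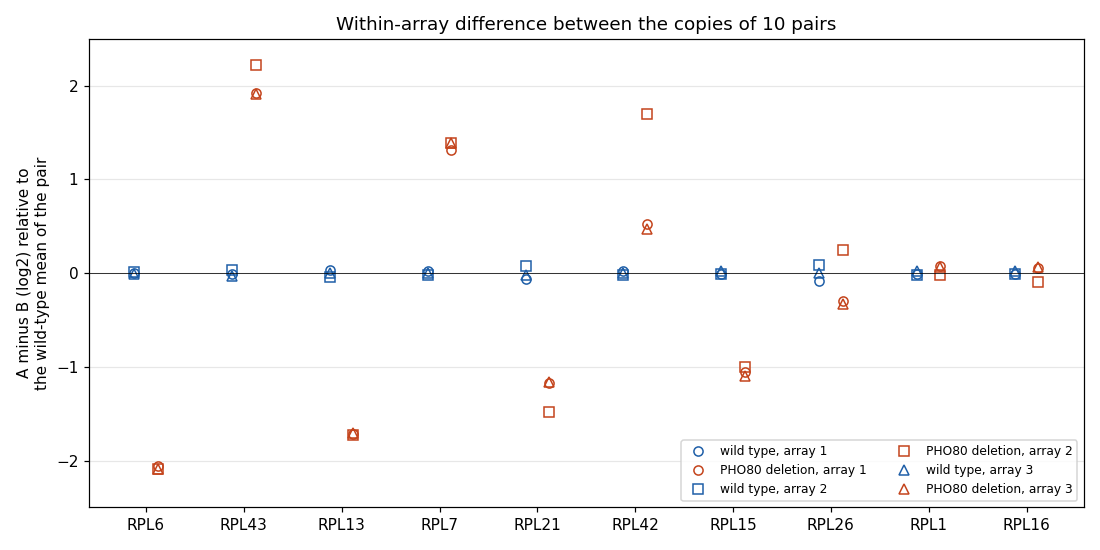
Within-array A minus B (log2), drawn relative to the pair's wild-type mean (vertical axis), for 5 of the 6 pairs with the largest differences, the 3 with the smallest, and RPL42 and RPL15 (horizontal axis). Blue points are wild-type arrays and orange points deletion arrays, and the square of RPL42 shows array 2 far from the other deletion arrays.

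The 3 pairs with the smallest differences were RPL26, RPL1 and RPL16. RPL16A read 2.40, 2.39 and 2.40 in wild type against 0.52, 1.21 and 0.52 in the deletion strain. RPL16B read 2.41, 2.40 and 2.37 in wild type against 0.47, 1.31 and 0.45 in the deletion strain. Their difference changed by -0.016, with a 95% interval of -0.28 to 0.24, so an unequal fall within those limits could not be seen. RPL1A encodes the protein of the mobile arm beside the exit site and read 2.21, 2.23 and 2.22 in wild type against 0.17, 0.17 and 0.13 in the deletion strain. RPL1B read 2.38, 2.41 and 2.35 in wild type against 0.25, 0.35 and 0.22 in the deletion strain. The interval for RPL1 was -0.20 to 0.25.

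RPL26A read 0.61, 0.72 and 0.70 in wild type against -0.83, -0.25 and -0.87 in the deletion strain. RPL26B read 2.83, 2.76 and 2.82 in wild type against 1.59, 1.63 and 1.59 in the deletion strain. On deletion array 2 the A copy was far higher than on the other deletion arrays and the B copy was not, which left a wide interval of -0.69 to 0.59 for the pair. Without deletion array 2, which left 1 deletion sample, the change in A minus B was -0.33.

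Most of the other pairs called unequal had the more negative change in A. RPL24, a bridge protein that replaces a placeholder late in assembly, had log2 fold changes of -2.87 and -1.68 for A and B, and RPL40, made as a fusion with ubiquitin, had -2.02 and -1.12. For RPL14 these were -2.68 and -1.65, for RPL9 -2.87 and -1.98 and for RPL41, the shortest of the ribosomal proteins, -2.17 and -1.61. RPL8 had -2.78 and -2.23 and RPL19 -1.20 and -0.66. In RPL4, a protein that reaches into the exit tunnel, the B copy fell more (-1.89 and -2.41). RPL35 had the smallest called difference, -0.27 (adjusted p = 0.049, limma). RPL35 was not called with normexp, without wild-type array 3 or without deletion array 1, and RPL8 was not called with quantile normalization.

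A further 16 pairs were not called unequal. With quantile normalization RPL20, RPL23, RPL27, RPL31, RPL36 and RPL37 were called, each with the same sign. That fit called 63.9% of all 61 pairs. RPL23, whose protein lies at the interface with the small subunit, had log2 fold changes of -1.69 and -2.70 for A and B (difference 1.001 ± 0.28, adjusted p = 0.0508, limma). RPL31 had -2.42 and -1.89, RPL34 -1.12 and -1.96, RPL22 -2.40 and -2.81 and RPL20 -1.51 and -1.86. Without deletion array 2 the deletion strain had 1 sample, and the difference in RPL22 had its sign turned. The change in A minus B went from 0.84 to 0.24 in RPL34 and from 0.41 to -0.19 in RPL22, and it was 0.63 in RPL23. It grew from -0.53 to -0.73 in RPL31 and from 0.35 to 0.54 in RPL20. The copies were closer in RPL27 (-3.25 and -2.98), RPL17 (-1.81 and -2.10), RPL36 (-1.10 and -1.35) and RPL12 (-2.44 and -2.21), whose protein lies at the base of the stalk. In RPL37 (-1.68 and -1.85) and RPL33 (-1.94 and -2.08) the 95% intervals of the difference were -0.11 to 0.45 and -0.16 to 0.43. Each of these copies was called lower on its own.

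Deletion array 2 stood apart in these genes too. Of the 81 genes 62 read higher on it than on both other deletion arrays, 17 lower and 2 in between, with a median shift of 0.35 against the mean of arrays 1 and 3. Over all tested genes the median shift was 0.015, with quartiles of -0.43 and 0.36, and in the small subunit genes the median was 0.30. The share of all tested genes that read higher on array 2 than on both others was not counted. RPL16B (0.85), RPL36B (0.81) and RPL31A (0.78) were shifted up most, and RPL42B (-0.99), RPL34B (-0.76), RPL22B (-0.59) and both RPL41 copies (each -0.59) were shifted down most. In 5 pairs the copies moved in opposite directions. Between deletion arrays 1 and 3 no member differed by more than 0.204, and no member spanned more than 0.107 across the wild-type arrays. The part of these shifts in the results above was not tested beyond leaving that array out.

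**Figure D5:**
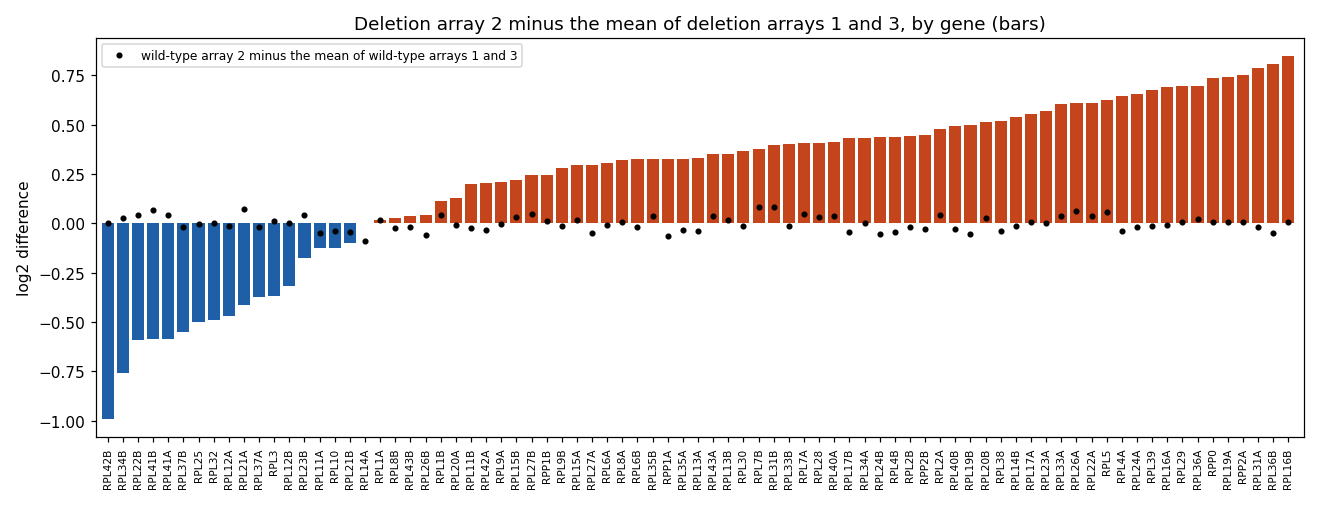
Log2 signal on deletion array 2 minus the mean of deletion arrays 1 and 3 (bars, vertical axis) for 79 large subunit genes (horizontal axis), and the same for wild-type array 2 (black points). Bars run from -0.99 for RPL42B to 0.85 for RPL16B, while the wild-type points stay near 0.

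The small subunit genes and the genes that build or regulate the large subunit give the setting for these falls. Of 57 small subunit genes 52 were called lower and 0 higher, beside the same 34.6% and 19.2% of all tested genes, with a median of -2.08, and the 3 with the smallest p were RPS22A (-3.53 ± 0.11), RPS10A (-3.40 ± 0.11) and RPS10B (-3.08 ± 0.11). No test of a difference between the 2 subunits was made. Of 45 assembly factor genes of the large subunit 30 were lower and 2 higher, beside 34.6% and 19.2% of all tested genes, with a median of -1.04. CIC1, HAS1 and SSF1, all nucleolar assembly factors, fell, with log2 fold changes of -2.26 ± 0.14, -1.96 ± 0.14 and -1.55 ± 0.12. The 2 that rose, RPF1 (0.82 ± 0.15) and BUD20 (0.98 ± 0.23), were named after their values were seen. Without wild-type array 2 the assembly factor counts were 19 lower and 0 higher, beside 19.1% and 8.92% of all tested genes.

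Of 7 genes for chaperones and loading factors of single large subunit proteins 4 were called lower, beside 34.6% of all tested genes. SYO1, which imports RPL5 and RPL11 together, read -0.35, -0.32 and -0.33 on the wild-type arrays and -2.18, -2.48 and -2.18 on the deletion arrays (-1.998 ± 0.15). RRB1, the chaperone of RPL3, had -1.48 ± 0.19, and LOC1 and PUF6, which help load RPL43, had -1.38 ± 0.24 and -1.85 ± 0.36. BCP1 (for RPL23), SQT1 (for RPL10) and ACL4 (for RPL4) were not called, at -0.28, -0.16 and -0.073. Of 6 genes for methyltransferases of large subunit proteins 2 were called lower, a share near the 34.6% of all tested genes. They were HPM1 (-0.75 ± 0.15) and RKM2 (-0.71 ± 0.16), and neither was called with median centring, with quantile normalization or without wild-type array 2.

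Of 10 tested regulators 2 were lower, 2 higher and 6 not called, beside 34.6% lower and 19.2% higher of all tested genes. HMO1, a high mobility group protein bound at many ribosomal protein promoters, rose, from -0.21, -0.15 and -0.21 to 0.81, 1.11 and 0.81 (1.14 ± 0.15, adjusted p = 0.00735, limma). RAP1, the main binding factor of these promoters, read -1.72, -1.77 and -1.69 in wild type against -1.27, -1.27 and -1.29 in the deletion strain (0.47 ± 0.11, adjusted p = 0.0306, limma), and was not called when wild-type array 2 was left out (adjusted p = 0.525, limma). ABF1 (-1.19 ± 0.13) and the kinase gene TOR1 (-2.14 ± 0.36) were lower, but ABF1 was not called with quantile normalization (-0.33) or without wild-type array 2.

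FHL1 read -4.05, -3.88 and -4.06 on the wild-type arrays and -4.37, -5.27 and -4.40 on the deletion arrays, with array 2 the lowest (-0.86 ± 0.35, adjusted p = 0.109, limma), and its sign turned with quantile normalization (0.13). IFH1, its coactivator, had 0.25 ± 0.17 (adjusted p = 0.277, limma) and was called higher with median centring (0.55). SFP1 had -0.068 ± 0.12 (adjusted p = 0.672, limma), its deletion arrays overlapped wild type, and its sign turned with median centring (0.23) and quantile normalization (0.17).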

How the data were processed

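Per the labels' protocols, total RNA was labelled with Cy3 and hybridised in 1 colour. Per the file headers and the submitters' processing notes, spots were read with Agilent Feature Extraction 10.1.1.1. The processed signal they deposited is a linear spot intensity, background-subtracted within the array and not scaled between arrays. The 75th percentile of intensity ran from 2404 to 5011 across arrays. In the authors' value table, the medians of intensity were 1120, 1140 and 950.5 for the wild-type columns and 1120, 746.5 and 1670 for the deletion columns. Against the scanner files it was uncentred, linear and of the same direction (r of log2 values 0.997 to 0.999). The sources used here do not say how it combined spots.

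Control spots and outlier-marked spots were dropped, and log2 processed signal minus the log2 75th percentile was averaged over a probe's spots. Of 6256 locus tags 5756 matched RefSeq assembly R64. A gene was tested (5863, with 393 not tested) if it was well above background on 3 or more arrays. limma 3.58.1 (R 4.3.3) compared the strains on 2 samples each, with an intensity trend, 2 residual plus 1.93 prior degrees of freedom and Benjamini-Hochberg adjustment over all tested genes at 0.05. A/B pairs were fitted without a trend over 61 pairs. The fits were tested on simulated data. The small number of arrays limits the precision.

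The members, lists and tests were chosen with earlier results of these data known. Named genes followed a rule: per-array values for the stalk genes, members without a partner, the 6 largest falls, the 6 smallest falls or rises, the 6 pairs with the largest and 3 with the smallest difference, 3 called genes of each list by p, and RAP1, FHL1, IFH1 and SFP1. A further pair is counted in all totals but is not reported by name here. MDN1 and NTM1 of the lists were not found by symbol. The files held no mean spot signal, so normexp used the median spot and median background signals with an offset of 50. Alternatives covered scaling, background correction, dim probes, the variance model, samples, the replicate number, each array and the value table. Figures were drawn with matplotlib 3.10.9.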

Additional observations from a re-analysis of the deposited data

How the results depend on the processing

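The fall of the large subunit genes kept its direction under all 16 alternatives: 71 to 79 of 81 were called lower, 70 of them in every alternative, and 79 members kept 1 sign. These fits called 19.1% to 56.1% of all genes lower. The median log2 fold change was -1.69 with median centring, -2.15 with quantile normalization, -1.93 with normexp, -2.05 with 6 separate arrays and -2.12 to -1.99 on leaving out 1 array. With the replicate number as a block on 6 separate arrays the median was -2.05, with 78 lower, 1 higher, 27 unequal pairs and 3 pairs with 1 copy lower. Same-numbered arrays did not deviate together (correlations -0.206, -0.17 and -0.01). This cannot settle whether the numbers pair the arrays, since the wild-type arrays differed by about spot noise. The count of pairs with 1 copy lower was 1 with median centring, 3 with quantile normalization, normexp or the value table, and 2 to 3 on leaving out 1 array. The members called higher were 0 with wild type as 1 sample and 0 to 1 on leaving out 1 array. Pairs called unequal were 0 with wild type as 1 sample and 0 to 31 on leaving out 1 array. RPL15B was among the 79 members that kept 1 sign, and its sign was a rise in all 16 alternatives. RPL35B turned to 0.012 with median centring. On leaving out 1 array RPL6B ran from -0.024 (without deletion array 2) to 0.14. The RPL26 difference turned to 0.27 with quantile normalization and ran from -0.33 to 0.010 on leaving out 1 array, the last without wild-type array 2. That of RPL16 turned to 0.0071 with 6 separate arrays, with or without the block, and ran from -0.025 to 0.062 on leaving out 1 array, the last without deletion array 2. None of these turned values of RPL35B, RPL6B, RPL26 and RPL16 was called. The RPL22 difference turned to -0.18 with quantile normalization and to -0.0056 with normexp, and was called in neither. Without deletion array 2, a fit with 1 deletion sample, the RPL22 difference turned to -0.19. The cause was not tested. All members were well above background, and the 2 samples per strain limit what can be told apart.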
